A study of Mus musculus with 20 samples.

Results

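FAIRE-seq, which sequences the DNA that stays free of crosslinked nucleosomes and so marks open chromatin, was compared between neuronal progenitors and day 10 neurons over every region of the deposited FAIRE table. The comparison covered 62877 regions, of 203518 in the FAIRE and H3K27ac tables of the same stages, and rested on 4 of the 20 libraries of the series. The value described is the change, the day 10 column minus the progenitor column in log2 units, by region width and by level, both as deposited and with each column centred on its median over all regions. The cells were mouse cells of the strain labelled 159.2. The progenitors and the day 10 neurons were each sampled in 2 FAIRE libraries, and so were day 1 neurons, which serve here as an intermediate point and as a measure of level that is not part of the difference. No treatment is given in the labels of the FAIRE samples, although a protocol text shared by all samples describes NMDA or DMSO treatment. The series also holds H3K27ac ChIP-seq at these stages, and ChIP-seq and RNA-seq of day 10 neurons after 200 µM NMDA or DMSO for 6 h.

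Chromatin opens where nucleosomes are displaced by transcription factors and remodelling complexes, mainly at promoters and enhancers. When a progenitor leaves the cell cycle and becomes a neuron, enhancers that served the progenitor lose their factors and close, while others open under proneural and neuronal factors. FAIRE recovers both kinds of element, and its signal depends on the whole culture: fewer cells with an open region and less opening per cell cannot be told apart in these bulk samples.

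The table names no genes and gives no coordinates, so regions are called by their deposited number and described by their width and values. Both libraries of a stage had been merged by the authors into 1 value, and nothing says whether they came from separate cultures, so there is no spread between replicates, no difference was tested, and the sizes below carry counting error only. In every region the value was matched to within 5.33e-15 by a ratio on the log2 scale: merged reads plus a constant of 16, divided by reference reads, weighted 0.305 each, plus that constant. Whole read counts were therefore recovered for all 62877 regions. Neither the nature of the reference nor any matching of depth between stages is stated in the labels. The labelled cell type could be checked in RNA alone, in other cultures, the DMSO-treated day 10 neurons. There, 7 of 7 pan-neuronal markers found in the table had at least 100 normalised counts in both libraries (range 2727 to 28109), Pou5f1 and Zfp42 were listed at 0 and the pluripotency gene Nanog at 9.88 and 4.79. The same libraries held 5 of 7 progenitor markers, 3 of 4 astrocyte markers, 2 of 4 oligodendrocyte markers and 5 of 5 fibroblast and mesenchyme markers at 100 counts or more, and summed 95698 and 88964 counts for the last list against 92438 and 100171 for the pan-neuronal one. The part of these other cells in the FAIRE values was not tested.

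As deposited, FAIRE enrichment was lower at day 10 than in progenitors in most of the regions. The median level was 0.99 in progenitors (quartiles 0.67 and 1.51), 0.79 at day 1 (0.51 and 1.24) and 0.44 at day 10 (0.24 and 0.73). The levels contracted toward the reference as well as falling: the 95th percentile went from 2.56 to 2.26 and then to 1.43, while the 5th went from 0.33 to 0.21 and then to 0.0083. In reads, the median region held 22 in progenitors, 17 at day 1 and 10 at day 10. Regions with no read at all numbered 1, 9 and 248 at the respective stages. Even so, 95.5% of the regions stayed above the reference at day 10, against 99.6% in progenitors.

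The median change from progenitors to day 10 was -0.61 as deposited, with quartiles of -0.94 and -0.30 and extremes of -3.04 and 1.34. Of all regions, 56309 (89.6%) were lower at day 10, 5355 (8.52%) were higher and 1213 (1.93%) were equal. A fall common to all regions and a lower sequencing depth at day 10 cannot be told apart in these values. With the reads scaled to equal totals over all regions the median change was -0.25 and 30.3% of regions were higher, and with totals over the regions under 1000 reference reads it was -0.0044 and 49.3% were higher. By the median values, the first day took a change of -0.22 and the later step one of -0.40; these steps share the day 1 column, so they are given side by side only. The progenitor value was the highest of the 3 stages in 68.8% of regions, the day 1 value in 21.4% and the day 10 value in 5.14%, and the day 10 value was the lowest in 78.8%. The order of the regions was loosely kept, with a Spearman correlation of 0.52 between progenitor and day 10 levels over the 62877 regions, which share 1 reference.

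At least 2-fold lower at day 10 were 14055 regions (22.4% of all), and at least 2-fold higher were 26 (0.0414%). The reads behind the lower ones were a median of 59 in progenitors, 39 at day 1 and 14 at day 10, so at the medians the fall went on over both steps. The lower regions were wide, with a median of 359 bp against 233 bp for all regions, and 305 of them were at least 4-fold lower. None of the lower regions had fewer than 16 progenitor reads, since with the constant of 16 a 2-fold fall needs that many. A 2-fold rise likewise needs at least 16 day 10 reads. The median region held 22 reads in progenitors but 10 at day 10, so the limit bears more on rises than on falls. Those 305 went from a median of 116 reads to 65 and then to 12, and together kept 0.113 of their progenitor reads (exact 95% interval for counting error 0.110 to 0.117). All these sets were picked by the change itself, so the size of the loss follows from the choice, which the interval does not cover.

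Centring each column on its median removes the difference of the column medians, -0.54, from every change. It leaves a median change of -0.06, because the median of the changes and the change of the medians are different quantities. On this scale 28271 regions (45.0%) were above 0 and 34606 (55.0%) below. Relative to the median, 734 regions (1.17%) were at least 2-fold higher and 2033 (3.23%) at least 2-fold lower. The relatively lower regions were wide and had been strong, with a median of 449 bp and of 89 progenitor reads. With the constant of 16 a fall of this size is out of reach for weak regions. The fewest progenitor reads in this set were 31, against a median of 22 over all regions, so its strength follows in part from the limit. The relatively higher ones were narrow and weak, with a median of 203 bp and of 7 progenitor reads, and 67.8% of them had under 10 progenitor reads, against 10.6% of all regions. At the median the relatively higher regions went from 7 reads to 11 at day 1 and 19 at day 10, mostly from low counts. A 2-fold rise on the centred scale is here also a rise as deposited. More reads at day 10 thus follow from the choice of these regions. Together they held 1.61 day 10 reads per progenitor read (1.60 to 1.62, an interval that does not cover the choice). Region 62017 alone held 82554 of their progenitor reads and 118089 of their day 10 reads. How many regions lie on each side depends on the scaling: with the reads scaled to equal totals over all regions, 592 were 2-fold higher and 3673 lower, and with quantile normalisation 899 and 763. More regions were 2-fold higher than lower also with reads scaled by the totals of regions under 1000 reference reads (2017 and 1782) and with centring on the highest decile by level (9620 and 169).

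**Figure D1:**
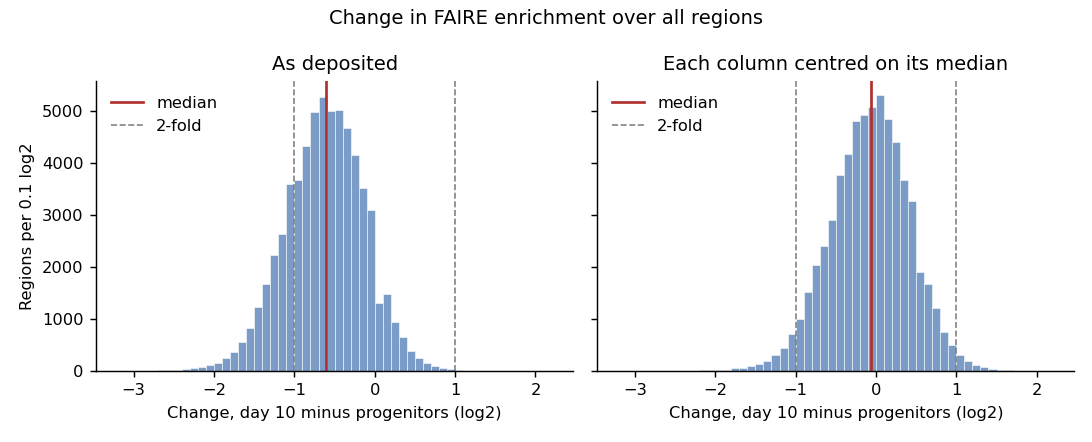
Number of regions per 0.1 log2 unit of change (day 10 minus progenitors) as deposited (left) and with each column centred on its median (right), with the median (red) and the 2-fold limits (dashed). The deposited distribution lies mostly below 0, with its median at -0.61, and the centred one has its median at -0.06.

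Regions ran from 153 bp to 1910 bp, with 5346 at the lower limit. Wider regions had higher levels at every stage, and as deposited they fell more. In the narrowest quintile (153 to 172 bp) the median level went from 0.61 in progenitors to 0.45 at day 1 and 0.26 at day 10. In the widest (359 bp and more) it went from 2.08 to 1.79 and then to 0.98. The median changes of the quintiles, from narrow to wide, were -0.36, -0.43, -0.58, -0.77 and -1.05. Every step of width thus brought a larger deposited fall, and the share of regions at least 2-fold lower went up with it, from 2.47% through 6.94%, 15.7% and 30.9% to 56.1%. The share of regions above their progenitor value went from 14.7% in the narrowest quintile to 2.29% in the widest. With centring the same quintiles read 0.18, 0.11, -0.04, -0.23 and -0.51, so that the narrow regions lie above 0 and the wide ones below, although the median of each quintile fell as deposited.

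Width separated the second step of differentiation more than the first. From progenitors to day 1 the median change was -0.16 in the narrowest quintile and -0.28 in the widest. From day 1 to day 10 it was -0.20 in the narrowest and -0.78 in the widest. In summed reads the first step did not run in that order and the second did. Without the regions of 1000 or more reference reads, day 1 neurons held 0.769 reads per progenitor read in the narrowest quintile and 0.800 in the widest, and day 10 neurons held 0.653 and 0.484 per day 1 read.

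**Figure D2:**
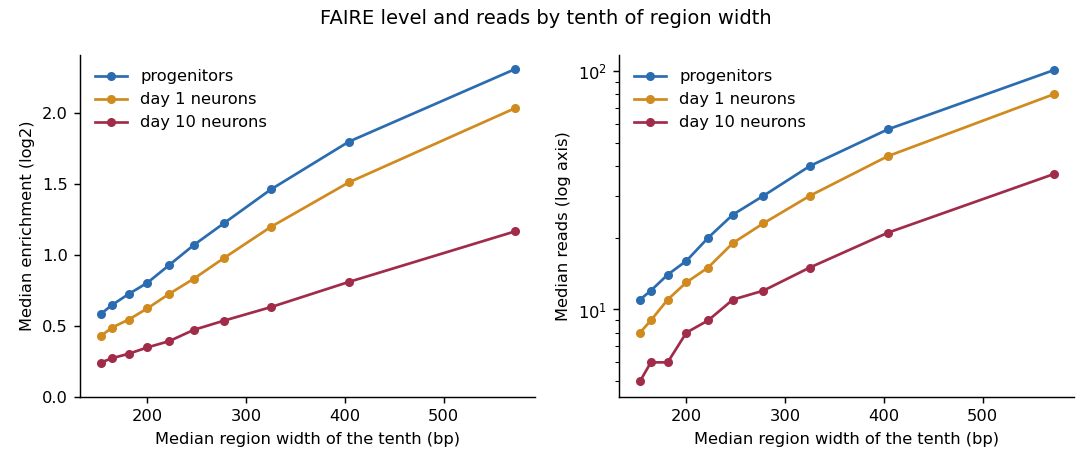
Median log2 enrichment (left) and median recovered reads per region on a log axis (right) in 10 width classes of nearly equal size, plotted at the median width of each class, for progenitors (blue), day 1 neurons (orange) and day 10 neurons (red). The 3 curves keep their order at every width, and in the left panel the gap between day 1 and day 10 widens as regions get wider.

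The constant of 16 reads in the authors' formula sets how much of a fall shows at a given depth. The median reads per region went from 22 to 10, more than a 2-fold loss, while the median deposited change of -0.61 is under 2-fold. With a pseudocount of 1 in place of 16, the median change over all regions was -1.19, and the widths ran over a smaller range: -1, -1, -1.14, -1.28 and -1.39 from the narrowest to the widest quintile. In summed reads, again without the regions of 1000 or more reference reads, day 10 neurons held 0.502 reads per progenitor read in the narrowest quintile (exact 95% interval 0.498 to 0.507). The next quintiles held 0.483, 0.458 and 0.414, and the widest 0.387 (0.386 to 0.388). These intervals do not overlap, so the larger loss in the widest quintile than in the narrowest exceeds counting error, while the spread between libraries is unknown. In summed reads the order did not hold among the widest regions. By deciles of width the ratio was 0.380 (0.378 to 0.382) in the ninth and 0.391 (0.389 to 0.393) in the widest. The class above 1000 bp (137 regions in all) held 0.506 (0.496 to 0.516) on the same basis. The median deposited change kept the order, with -0.98 in the ninth decile, -1.12 in the widest and -1.16 above 1000 bp. In that last class 66.4% of regions were at least 2-fold lower.

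For comparison, 1 ratio of 0.418, that of the summed reads over the same regions, was put through the formula for every region. It gives median changes of -0.39, -0.48, -0.59, -0.73 and -0.95 for the 5 width quintiles. The deposited medians lay within 0.04 of these values per region in the 4 narrower quintiles, taken as the median of the differences, and 0.11 below them in the widest (median difference -0.11). The same comparison by day 1 level gave median differences from 0.09 in the lowest quintile to -0.13 in the highest.

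**Figure D3:**
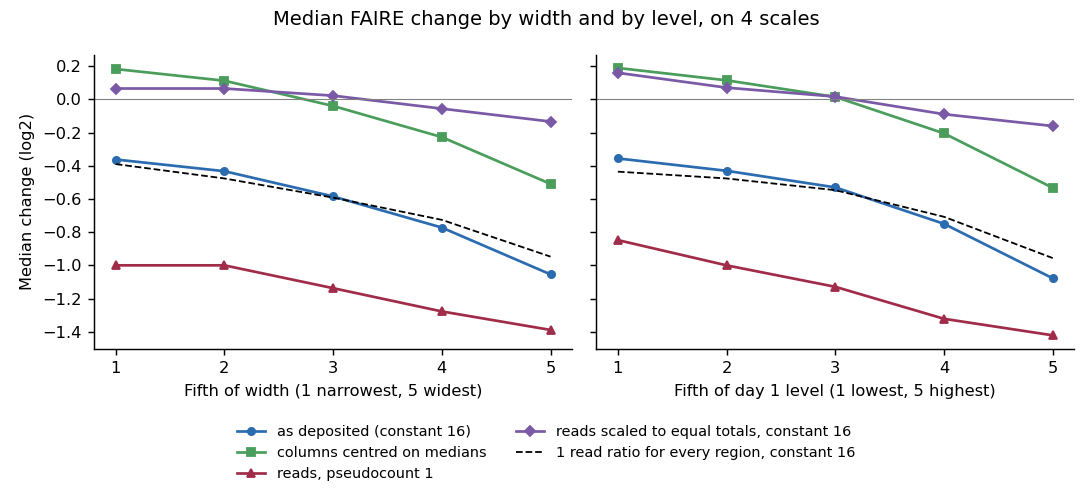
Median change from progenitors to day 10 by quintile of width (left) and of day 1 level (right), as deposited, centred, from reads with a pseudocount of 1, and from reads scaled to equal totals over regions under 1000 reference reads; the dashed line is 1 read ratio of 0.418 applied to every region through the authors' formula. All 4 scales decline from left to right or stay level at the first step, the deposited line runs close to the dashed one, and the scaled reads span the smallest range, 0.07 to -0.13 by width.

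Level was first taken as the mean of both stages. From the lowest to the highest quintile of this mean the median change was -0.32, -0.43, -0.55, -0.77 and -1.07, and 2.15% of the lowest quintile but 58.1% of the highest were at least 2-fold lower. In the highest quintile the median region went from 81 progenitor reads to 62 at day 1 and 30 at day 10. In the lowest it went from 10 to 10 and then to 5. The timing in weak regions turned with the column that sorts them: in the lowest quintile by day 1 level the median region went from 13 reads to 7 at day 1 and 7 at day 10. On the centred scale the share of regions above 0 dropped from 74.3% in the lowest quintile to 9.05% in the highest.

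The choice of level changed the shape of this relation. By the day 1 column, which is not part of the difference, the medians were -0.36, -0.43, -0.53, -0.75 and -1.08, close to those of the mean. By the progenitor column they were steeper, from -0.10 in the lowest quintile to -1.17 in the highest, and 34.8% of the lowest quintile was higher at day 10. By the day 10 column the order was lost, with -0.72 in the lowest quintile, -0.43 in the middle one and -0.87 in the highest. The progenitor and day 10 columns each enter the difference they are set against here, so these last values are a description of the sorting as much as of the regions. By day 1 level the summed reads at day 10 per progenitor read were 0.565 (0.561 to 0.570), 0.491, 0.450, 0.400 and 0.382 (0.380 to 0.383) from the lowest to the highest quintile. By deciles the ratio was 0.373 (0.371 to 0.375) in the ninth and 0.386 (0.384 to 0.388) in the highest.

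**Figure D4:**
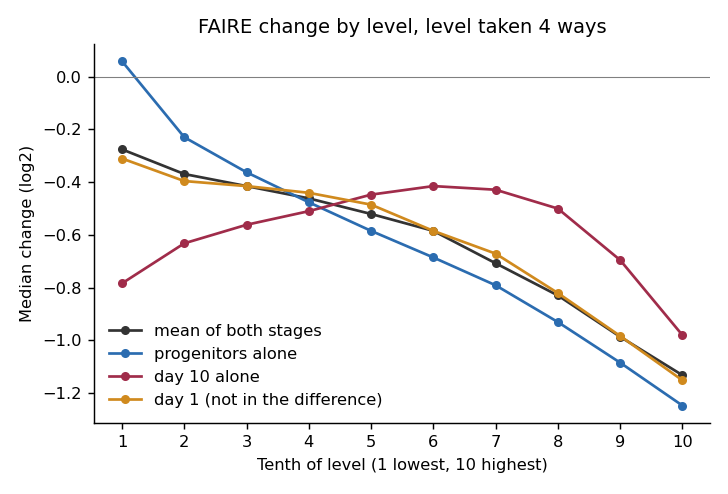
Median change (log2) in 10 classes of level, with the level taken as the mean of both stages, from progenitors alone, from day 10 alone or from day 1. The curves by the mean and by day 1 decline together, that by progenitors is the steepest, and that by day 10 rises to the middle classes and falls at the highest.

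Width and level went together, with a Spearman correlation of 0.79 over regions between the width and the mean level, so each was also read within classes of the other. Within quintiles of mean level, the widest quintile lay 0.18 below the narrowest at the median (difference -0.18), against a difference of -0.69 over all regions. The lowest mean level went the other way at its ends, with -0.31 in its narrowest regions and -0.14 in its 62 widest. Within quintiles of width, the highest level lay below the lowest by a difference of -0.33, against -0.75 over all regions. With level quintiles cut over all regions, this varied with width. In the narrowest quintile the median change was -0.31 at the lowest level and -0.37 at the highest, which held 4 regions. In the widest it was -0.14 at the lowest level and -1.13 in the 8732 regions of the highest. In regions of the third width quintile, sorted by day 1 level, the median change went from -0.39 through -0.49, -0.58 and -0.70 to -0.81. In the regions of the highest day 1 level, the 442 of that middle width had a median change of -0.81, the 3180 of the next quintile -0.97 and the 8892 widest -1.13.

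The spread of the changes exceeded counting error. The standard deviation of the change over all regions was 0.489, and counting error from the recovered reads accounted for 22.8% of the variance, which leaves a standard deviation of 0.429. That remainder holds differences between regions and any difference between libraries, and merged values cannot separate them. It also holds spread that the constant of 16 makes. With the same read ratio of 0.418 in every region, the median change already went from -0.39 in the narrowest quintile to -0.95 in the widest. In the narrowest quintile counting error made up 43.9% of the variance and in the widest 20.9%. The counting error itself was of similar size in these classes, and the spread of the changes was smaller in the narrow one (SD 0.348 against 0.473). A region at the median, number 891 (164 bp), went from 16 reads to 5, and the exact 95% interval for its ratio of 0.312 ran from 0.0895 to 0.893.

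The 5 largest falls among regions above the median level were wide, strong progenitor regions. They had 15 to 21 reference reads, against a median of 10 over all regions. Per kb these were 24.2 to 36.1, under the 39.8 of the median region. With the constant of 16 a fall of this size is out of reach for weak regions, so their strength follows in part from the choice. Region 10867 (593 bp) had levels of 3.38 in progenitors, 2.50 at day 1 and 0.34 at day 10, from 198, 100 and 10 reads against 15 reference reads. Its change was -3.04, or 19.8-fold fewer reads (exact 95% interval for counting error 10.5 to 41.9). Region 31964 (703 bp) went from 230 reads to 109 and 16, a change of -2.94. By day 1 both had lost about as many reads as they kept, and most of the rest was gone by day 10.

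Region 10842 (668 bp) went from 212 reads to 98 and 14, a change of -2.93. Its number lies close to that of region 10867. Region 44051 (531 bp) went from 126 reads to 52 and then 3, a change of -2.90, and its day 10 level of -0.14 was under the reference. Region 15948 (498 bp) went from 181 reads to 72 and 11, a change of -2.87. All 5 declined at each step. They were picked for the size of this fall, so the values are a description.

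The largest rises in the same part of the table had another character. Region 62016 (305 bp) went from 6424 reads to 2469 at day 1 and 14642 at day 10, a change of 1.19, with 5128 reference reads. Region 62014 (245 bp) went from 5459 to 2182 and 11291 reads, a change of 1.05, with 5659 reference reads. Both fell before they rose, so that their day 10 value followed a dip.

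Region 62816 (249 bp) went from 48 reads to 68 and 118, a change of 1.07, with 120 reference reads. Region 62496 (564 bp) went from 69 to 85 and 157 reads, a change of 1.03, with 158 reference reads. Region 62502 (254 bp) went from 13 to 31 and 41 reads, a change of 0.97, with 24 reference reads, and its ratio of 3.15 had an exact 95% interval of 1.66 to 6.41. The last 3 rose at each step. The reference is common to all stages and cancels in the change, yet these regions had 94.5 to 23098 reference reads per kb, against 39.8 in the median region.

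The 26 regions at least 2-fold higher at day 10 had a median of 246.8 reference reads per kb, with values from 28.1 in region 40973, under that of the median region, to 23098 in region 62014. Of these, 10 had 100 or more reference reads, as did 217 of all 62877 regions, and 11 had under 10 progenitor reads. Together they held 2.21 day 10 reads per progenitor read (2.17 to 2.26), and most of that sum came from regions 62016 and 62014. They were picked by this rise, so the ratio describes the choice and its interval does not cover it. The largest change, 1.34 in region 62545 (239 bp), rested on 20, 32 and 75 reads at the 3 stages and 95 reference reads. Region 5519 (257 bp) followed, with 8, 28 and 42 reads and a change of 1.27. By their numbers 12 of the 26 lay above 62000, where 1.39% of all regions lie; that limit was chosen after the numbers were seen.

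The regions were also sorted by reference reads per kb. From the lowest to the highest quintile the median change was -0.65, -0.67, -0.66, -0.60 and -0.47, and the median widths stayed between 215 and 250 bp. In summed reads, without regions of 1000 or more reference reads, day 10 neurons held 0.356 (0.353 to 0.358), 0.373, 0.391, 0.421 and 0.546 (0.543 to 0.548) reads per progenitor read. The loss was thus smaller where the reference was denser, and 22 of the 26 regions at least 2-fold higher were in the densest quintile.

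A very small set of regions held much of the sequencing. In 40 regions there were 1000 or more reference reads, and they took 23.8% of the progenitor reads in regions and 43.4% of the day 10 reads. Their summed reads went from 712616 in progenitors to 583835 at day 1 and 731414 at day 10, a sum of regions that rose and regions that fell (13 of the 40 had a higher value at day 10), while the other 62837 regions went from 2281748 through 1786909 to 954889. Over all regions day 10 neurons held 0.563 reads per progenitor read; without the 40 they held 0.418 (0.417 to 0.419). Any scaling by total reads is therefore set in large part by these regions. The median change over regions was -0.61 with or without them.

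Most of the 40 lay in a few stretches of the numbering, and others stood alone, among them regions 12219, 40906 and 49803. Regions 62013 to 62024, 12 in all and 7773 bp in sum, held 310989 reads in progenitors, 113268 at day 1 and 399548 at day 10, or 10.4%, 4.78% and 23.7% of all reads in regions. All 12 were lowest at day 1, and 8 were higher at day 10 than in progenitors, with changes from -0.37 to 1.19. Region 62017 (1804 bp), among the 3 widest of the table, went from 82554 to 29907 and then 118089 reads, a change of 0.52. Regions 33633 to 33635 followed another course, with 265692, 312062 and 231910 reads, highest at day 1, and changes between -0.30 and -0.18. The 13 such regions between numbers 58454 and 58476 behaved like these, with changes between -0.38 and -0.11.

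**Figure D5:**
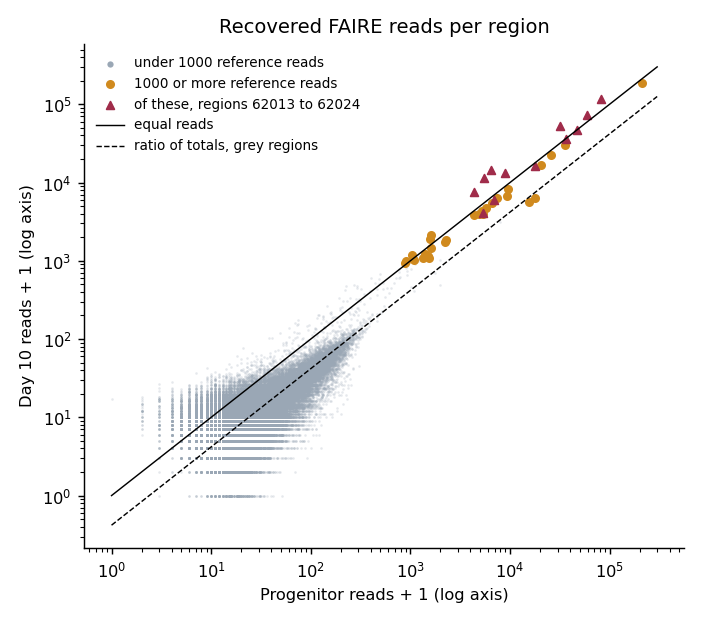
Recovered reads plus 1 in progenitors (horizontal) and at day 10 (vertical) for every region, both on log axes; the solid line marks equal reads and the dashed line the ratio of 0.418 over regions under 1000 reference reads. Most grey regions scatter about the dashed line, whereas most of the 40 regions with 1000 or more reference reads lie near the solid line, and 8 of the 12 regions 62013 to 62024 lie above it.

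The strongest regions by mean level also had consecutive numbers, 26049, 26050 and 26051. Region 26049 (1806 bp) had levels of 5.47, 5.71 and 4.0 in progenitors, day 1 and day 10 neurons, from 17685, 20829 and 6386 reads. Its change was -1.47, a ratio of 0.361 (0.351 to 0.372). Region 26050 (1674 bp) went from 15397 to 18480 and 5603 reads and region 26051 (925 bp) from 7947 to 9815 and 3134, with changes of -1.46 and -1.34. All 3 peaked at day 1 and fell below their progenitor value at day 10. They had 1256, 1144 and 604 reference reads. Their read ratios, 0.361 to 0.394, were under the 0.418 of the regions with fewer than 1000 reference reads. The widest region, 62012 (1910 bp), went from 586 to 697 and 451 reads, a change of -0.37, a fall smaller than that of the median region despite its width.

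The H3K27ac table of the same stages gives a frame for the size and one-sidedness of the FAIRE change; its tables were made separately, so no difference was computed. H3K27ac, an acetylated histone found at promoters and enhancers in use, had a median change of -0.12 from progenitors to day 10 over 140641 regions, with 42.7% of regions higher. At least 2-fold higher were 13898 (9.88%) and at least 2-fold lower 21304 (15.1%), and with centring 14423 (10.3%) and 19994 (14.2%). The interquartile range of its change was 1.08, against 0.65 for FAIRE. The summed reads were closer than the medians: day 10 neurons held 0.624 H3K27ac reads per progenitor read, against 0.563 for FAIRE over all regions. Its widest quintile had a median change of -0.43 and its narrowest of -0.11, so wide regions had the larger deposited fall in both tables.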

How the data were processed

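Groups were taken from the sample titles. Both chromatin tables hold log2 values deposited by the authors as merged enrichment, 1 column per stage with the 2 libraries merged, and region widths in bp. The RNA table holds a signal, normalised read counts per the labels, and served for the marker check alone. The submitters' processing notes name TopHat, Bowtie, HTSeq and DESeq, and the mm9 build. Which tool served which step, the peak caller and any depth matching were not given in the sources used here. The recovery was run with a logarithm of base 2 and a constant of 16, both set beforehand. The weight of a reference read was worked out from the steps of the values. With these, ratios of columns were whole-number ratios within 2e-13, and reference reads were whole within 1e-06. The recovery was tested on simulated tables made with the same constant and returned the reads put in. Recovered reads in regions came to 2994364 in progenitors, 2370744 at day 1 and 1686303 at day 10.

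Changes, quantiles, quintile medians and counts past 2-fold (log2 difference of 1) were computed in Python 3.11.15 with numpy 2.4.6, pandas 2.3.3 and scipy 1.17.1. Intervals on read ratios are exact (Clopper-Pearson, 95%) and cover counting error only; reads are not shown to be independent molecules. Tests on libraries had been planned for the case that values per library were given; with merged values none was run. Named regions are the 5 largest rises and 5 largest falls among regions at or above the median level, the 3 widest, the 3 with the highest mean level and the one nearest the median change. Regions 62545 and 5519, the limits on reference reads and the stretches of numbers were chosen after values were seen. The comparison and the lists were chosen with earlier results of these data known.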

Additional observations from a re-analysis of the deposited data

How the results depend on the processing

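Of 52 alternatives, 11 stayed within 1.5 times a count or within the interval of a value, and 41 moved. The intervals were narrow, -0.6101 to -0.6057 for the median change. With 1 merged value per stage they hold no spread between libraries, and regions are not replicates. The tally is therefore no test, and the sizes below say more than the label. The median change, and the differences by width and by level, stayed negative in each alternative run for them. For the median change none of these rescaled the columns, so its sign was hardly put to the test. With reads scaled to equal totals over all regions it was -0.25, and with totals over regions under 1000 reference reads -0.0044. The balance of higher and lower regions turned under 3 scalings. These were quantile normalisation, centring on the highest decile by level, and reads scaled by the totals of regions under 1000 reference reads. No paired analysis was possible because each stage has 1 merged column, and for the same reason no replicate could be left out. Of the deposited counts, 26 regions 2-fold higher and 14055 lower became 734 and 2033 with centring, 592 and 3673 with scaling by total reads, 899 and 763 with quantile normalisation, and 383 and 33200 at 1.5-fold. Of the centred counts, 734 higher and 2033 lower became 9620 and 169 when centred on the highest decile by level, 5279 and 9392 at 1.5-fold, and 6664 and 8954 with a pseudocount of 1. The lower count was 3673 with scaling by total reads and 763 with quantile normalisation. The higher count was 154 among regions at or above the median level, 264 among those of at least the median width and 2017 (against 1782 lower) with reads scaled by the totals of regions under 1000 reference reads, an alternative added after the data were seen, as were the others that use reference reads. The median change of -0.61 was -1.19 with a pseudocount of 1, -0.72 with at least 20 reads and -0.85 from the median width up, and its interquartile range of 0.65 was 1.09, 0.64 and 0.64 (0.640 and 0.638). The difference of -0.69 between the widest and narrowest quintiles was -0.39, -0.59 and -0.51 under these 3 settings, -0.18 within quintiles of level, -0.77 with deciles and -0.20 with reads scaled by the totals of regions under 1000 reference reads. The difference of -0.75 between the highest and lowest level was -0.48, -0.63 and -0.62 under the same 3 settings, -1.07 with the level from progenitors, -0.15 from day 10, -0.72 from day 1, -0.33 within quintiles of width and -0.22 with those scaled reads. The ratio of reads, 0.563, was 0.418 without regions of at least 1000 reference reads and 0.408 without those of at least 100. The smaller ranges with a pseudocount of 1 follow from the formula; for the other settings the cause was not tested.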

Other observations

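Regions with neighbouring numbers changed alike to a small degree. Over the 62877 regions in the order of their numbers, the Pearson correlation of the change with that of the next region was 0.15, with that of the region 10 numbers on 0.07, with that 100 numbers on 0.02, and -0.00055 at 1000 numbers. These are descriptions across regions of the same 4 libraries, and the table does not say that the numbers follow the genome.

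Regions whose change lay within 1.1-fold as deposited numbered 6590, or 10.5% of all. They were narrow and weak, with a median width of 189 bp. Their medians were 10, 12 and 10 reads in progenitors, day 1 and day 10 neurons, and 42.3% of them had under 10 progenitor reads. The constant in the authors' formula draws the change of regions with few reads toward 0. That these regions were narrow and weak therefore follows in part from the formula. The like reads in progenitors and at day 10 follow from the choice by a small change.

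Among regions under 1000 reference reads, the strongest 1% by reads held 7.84% of the reads in progenitors, 9.22% at day 1 and 9.98% at day 10.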
